A study of Mus musculus with 3 samples.

Results

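Retinoic acid synthesis and breakdown genes were followed across the cells of the mouse limbus and iridocorneal angle. The set held 10 genes, listed by name among the 31053 genes of the matrices. They were *Rbp4* and *Stra6* (retinol transport), *Rdh10*, *Aldh1a1*, *Aldh1a2* and *Aldh1a3* (synthesis), *Crabp1* and *Crabp2* (binding of retinoic acid within the cell) and *Cyp26a1* and *Cyp26b1* (breakdown). Transcripts were counted as unique molecular identifiers (UMIs) by droplet single-cell RNA sequencing. There were 3 libraries from 6-week-old mice, each a pool of 4 to 6 eyes from 2 to 3 animals. Control 1 and control 2 carried the floxed *Angpt1* alleles without Cre (*Angpt1* flox/flox), and the *Angpt1*ΔNC library carried the same alleles with the Wnt1Cre transgene (*Angpt1* flox/flox;Wnt1Cre+). All came from a mixed background crossed onto ICR for albino animals. Wnt1-Cre recombines in neural crest derivatives, a lineage that does not hold vascular endothelium or surface epithelium.

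The kept cells with a deposited label numbered 9076 in control 1, 10160 in control 2 and 6772 in the *Angpt1*ΔNC library, of 11255, 12625 and 8614 barcodes in the matrices. Their UMIs summed to 76981606, 80346829 and 66484181, with medians per cell of 6329.5, 6393.5 and 7444. At least 1 *Angpt1* UMI was found in 1562 and 1759 control cells and in 23 *Angpt1*ΔNC cells, so the targeted gene was low in the library labelled as knockout. The pools also differed in sex. Cells with a UMI of the Y-linked genes *Ddx3y* or *Eif2s3y* and none of *Xist* made up 66.7% and 69.1% of the controls and 28.4% of the *Angpt1*ΔNC cells. Cells with *Xist* and neither Y-linked gene made up 57.1% of the *Angpt1*ΔNC library, 1 cell of control 2 and no cell of control 1. Genotype counts were therefore also made from male-typed cells alone. The libraries shared 25 (control 1 and control 2), 14 (control 1 and *Angpt1*ΔNC) and 13 (control 2 and *Angpt1*ΔNC) cell barcodes, and counts without those cells are given as well.

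Retinol circulates bound to retinol binding protein 4 and transthyretin and can enter cells through the receptor encoded by *Stra6*. Within cells it is oxidised first to retinaldehyde, a step for which *Rdh10* encodes a dehydrogenase, and then to retinoic acid by the enzymes of the *Aldh1a* genes. Retinoic acid acts through nuclear receptors that bind DNA, and CYP26 enzymes oxidise it to products that are cleared. In the developing eye, retinoic acid made by epithelia acts on the neural crest-derived mesenchyme that forms the anterior segment.

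The genes lie on chromosomes 1, 3, 6, 7, 9 and 19 of GRCm38 in the GENCODE M21 annotation. *Cyp26a1* (chr19:37697798-37701536, plus strand) and *Rbp4* (chr19:38116629-38125281, minus strand) were the nearest pair, 415 kb apart. *Aldh1a1* lies on the same chromosome (chr19:20492715-20643465, plus strand). Chromosome 9 carries *Crabp1* (chr9:54764748-54773110), *Stra6* (chr9:58063788-58153996) and *Aldh1a2* (chr9:71215789-71296243), all on the plus strand. *Rdh10* (chr1:16105774-16133734) and *Crabp2* (chr3:87948666-87953376) are on the plus strand, and *Cyp26b1* (chr6:84571414-84593908) and *Aldh1a3* (chr7:66390890-66427517) on the minus strand. Promoter windows of 300 bases, 250 before and 50 after the start, were available from RefSeq (GRCm38.p6) for 7 of the 10 genes and for 35 of 44 other retinoid pathway genes. They were searched on both strands for the half-site NGNTCA (A or G at the first N, G or T at the second) repeated in one direction, the form bound by retinoic acid receptors. Direct repeats with a 5-base spacer (DR5) occurred in 32 of 32851 windows (0.0974%), and those with a 2-base spacer in 88 (0.268%). Among the 10 genes only the *Cyp26a1* window held a DR5, and among the other pathway genes only that of *Rarb*, which encodes a retinoic acid receptor. No window of either list held the repeat with a 2-base spacer. The 2 stretches are shown because they carry the only DR5 found in the windows of these genes. Each gives bases -110 to -11 from the RefSeq start, 5′ to 3′ on the strand of the gene, with the DR5 in capitals. *Cyp26a1* lies at chr19:37697698-37697797 (plus strand) and *Rarb* at chr14:16575487-16575586 (minus strand).
Cyp26a1: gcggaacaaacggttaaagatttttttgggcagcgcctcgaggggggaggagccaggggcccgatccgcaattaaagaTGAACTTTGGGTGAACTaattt
Rarb: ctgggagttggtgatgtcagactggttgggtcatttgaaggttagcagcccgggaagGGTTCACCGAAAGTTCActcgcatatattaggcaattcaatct
The *Cyp26a1* repeat reads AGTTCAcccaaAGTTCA on the opposite strand, at -32 to -16. The *Rarb* repeat reads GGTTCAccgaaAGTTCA at -53 to -37. A match gives the letters of the window and not that a receptor bound there.

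Cells were grouped by the labels deposited with the data, which were made by clustering these same cells. Differences between labels are therefore described and not tested. A level is the mean over the cells of a label of their UMIs per 10,000, and 34 of 35 labels had at least 20 cells in each control. Retinal pigment epithelium genes filled 6 of the 10 leading genes of label 1. Label TM4 was led by the trabecular meshwork genes *Chad*, *Myoc* and *Chil1*, and label 20 by the pericyte genes *Rgs5*, *Kcnj8* and *Abcc9*. Label 19 was led by smooth muscle genes (*Myh11*, *Tagln*, *Acta2*), label 3 by keratins of the conjunctiva (*Krt19*, *Krt13*, *Krt4*), and EC3 by *Plvap*, *Cldn5* and *Cdh5* of endothelium. Labels 17, 18, 23, TM3, TM6, TM8, TM9 and TM11 had none of the listed marker genes among their 10 leading genes and are called by label only.

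**Figure D1:**
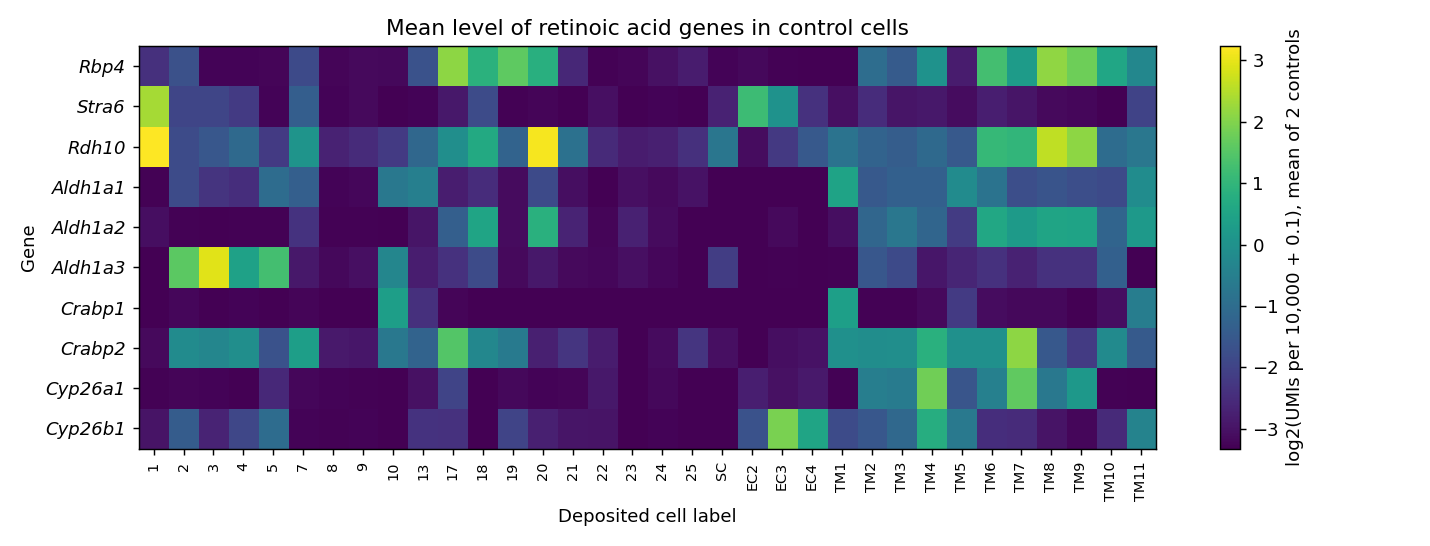
Mean level of each gene (rows) in each label with at least 20 cells per control (columns), as log2 of the mean UMIs per 10,000 of the 2 controls plus 0.1. *Aldh1a3* was bright in labels 2 to 5, *Rbp4* in labels 17 to 20, TM6, TM8, TM9 and TM10, and *Cyp26b1* in EC3 and TM4.

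Each gene had its own set of leading labels. *Rbp4* was highest in TM8 (4.53 in control 1 and 4.14 in control 2), label 17 (4.24 and 4.32) and TM9 (3.18 and 3.48). TM8 and label 17 exchanged places between the controls. *Rbp4* was itself among the 10 leading genes of label 17. *Stra6* was highest in label 1 (5.51 and 4.50), followed by the endothelial labels EC2 (1.81 and 2.47) and EC3 (0.911 and 0.927). *Rdh10* was highest in label 1 (10.4 and 8.23) and the pericyte label 20 (8.43 and 9.14), whose order also differed between the controls, and then in TM8 (5.90 and 6.00).

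The retinaldehyde dehydrogenases differed in their leading labels. *Aldh1a1* was highest in TM1 (1.43 and 1.14), a label led by *Angptl7* and *Kera*, and then in TM11 (0.921 and 0.693) and TM5 (0.815 and 0.766), which was led by *Tnc*. *Aldh1a2* was highest in label 20 (1.66 and 1.74), TM6 (1.48 and 1.37) and TM8 (1.38 and 1.29). *Aldh1a3* was the epithelial member. It was highest in the conjunctival label 3 (7.40 and 7.74), in label 2 with its cell cycle genes *Top2a* and *Birc5* (2.92 and 2.90), and in label 5 led by *Krt12* (2.52 and 2.11). The top 3 labels held 82.8% and 82.6% of all *Aldh1a3* UMIs of the controls.

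The binding proteins and breakdown enzymes were also unevenly spread. *Crabp1* was nearly limited to TM1 (1.43 and 0.980), label 10, which had *Gfap* among its leading genes (1.34 and 1.00) and TM11 (0.692 and 0.492), which held 91.7% and 85.1% of its UMIs. *Crabp2* was highest in TM7 (4.79 and 3.77), label 17 (3.35 and 2.03) and TM4 (2.12 and 1.27). *Cyp26a1* was highest in TM4 (4.32 and 2.57), TM7 (3.18 and 2.81) and TM9 (0.948 and 1.10), and control 1 alone placed TM4 above TM7. *Cyp26a1* and *Crabp2* were among the 10 genes that led TM7. *Cyp26b1* was highest in the endothelial label EC3 (3.61 and 3.78), then in TM4 (1.5 and 1.70) and in the endothelial label EC4 (0.719 and 1.91).

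Shares of cells with a UMI in the leading label were far from those of lymphocyte label 22, which should lack these genes and was used as a background. Label 22 had shallow cells, with median UMIs of 2267, 2500 and 2531 in control 1, control 2 and *Angpt1*ΔNC. Its share was at most 5.26% in the controls, for *Rdh10* in control 2. In the controls, *Cyp26b1* UMIs were found in 60.2% (exact 95% interval 50.8 to 69.1) and 66.9% (57.7 to 75.3) of EC3 cells. *Cyp26a1* UMIs were found in 52.1% (46.1 to 58.0) and 43.0% (37.6 to 48.6) of TM4 cells. These intervals cover counting error only. With every cell thinned to 2000 UMIs, shallower cells left out, the shares were 38.8% and 37.3% for *Cyp26b1* in EC3 and 31.7% and 23.6% for *Cyp26a1* in TM4. Thinning left the share of the leading label above that of label 22 for all 10 genes. The leading labels were chosen for their level in these same cells, so this order was nearly fixed in advance and is no test.

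Across the 34 labels, the profiles of the 10 genes were compared as Pearson correlations of log2 levels, once in each control. The labels share libraries and depth, so the values are descriptive. *Rbp4* and *Aldh1a2* followed each other most closely (r = 0.83 in control 1 and 0.80 in control 2). *Rdh10* correlated with *Aldh1a2* at 0.64 and 0.72 and with *Rbp4* at 0.67 and 0.63, and *Aldh1a1* with *Crabp1* at 0.69 and 0.62. *Aldh1a3* and *Aldh1a2* had values of -0.13 and -0.13, and the breakdown genes *Cyp26a1* and *Cyp26b1* of 0.26 and 0.23.

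Among 6957 genes reaching 0.5 UMIs per 10,000 in some label of both controls, those most like each member were ranked by the lower of the 2 correlations. *Aldh1a2* was followed by *Edn3* (0.93 and 0.90), *Brinp1* (0.92 and 0.88) and *Kcne4* (0.88 and 0.88), and *Rbp4* by *Dact1* (0.91 and 0.91) and *Pcdh18* (0.89 and 0.89). *Aldh1a3* was closest to *Prrg4* (0.90 and 0.93), *Tmem40* (0.90 and 0.90) and *Cwh43* (0.89 and 0.89). *Cyp26a1* was closest to *Gdf10* (0.83 and 0.82), *Smoc1* (0.79 and 0.83) and the Wnt receptor gene *Fzd1* (0.77 and 0.77). *Stra6* was closest to *Six3* (0.85 and 0.84), *Slc22a8* (0.76 and 0.82) and *Slco1a4* (0.75 and 0.80), of which the last 2 encode organic anion transporters. The nearest gene was *Fbln7* for *Rdh10* (0.76 and 0.76), *Serf1* for *Aldh1a1* (0.84 and 0.80), *Matn4* for *Crabp1* (0.77 and 0.74), *Nradd* for *Crabp2* (0.84 and 0.80) and *Dysf* for *Cyp26b1* (0.76 and 0.81).

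Genotypes were compared within each label, on UMIs summed per library, by edgeR's quasi-likelihood test with Benjamini-Hochberg adjustment over all genes of all 29 labels that had 50 cells or more in every library. Cells were not replicates. With 2 control pools and 1 *Angpt1*ΔNC pool, the fit had 1 residual degree of freedom and assumed that the lone library varied like the controls. Of 290 pairs of a gene and a label, 158 passed the filter on low counts, and 46 of these (29.1%) had an adjusted p under 0.05, 33 lower and 13 higher in *Angpt1*ΔNC. Over all genes, 4.91% of 249562 pairs passed, 2.43% lower and 2.48% higher. DESeq2 made 24 of the 45 calls for which it gave an adjusted p, and 43 of 46 were made without the shared barcodes. With no filter on low counts 40 of the 46 were made, and with every cell thinned to 2000 UMIs 25 of the 42 that could be tested. In male-typed cells alone, 29 of the 41 calls that could be tested were made, and 40 of the 41 kept their direction.

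**Figure D2:**
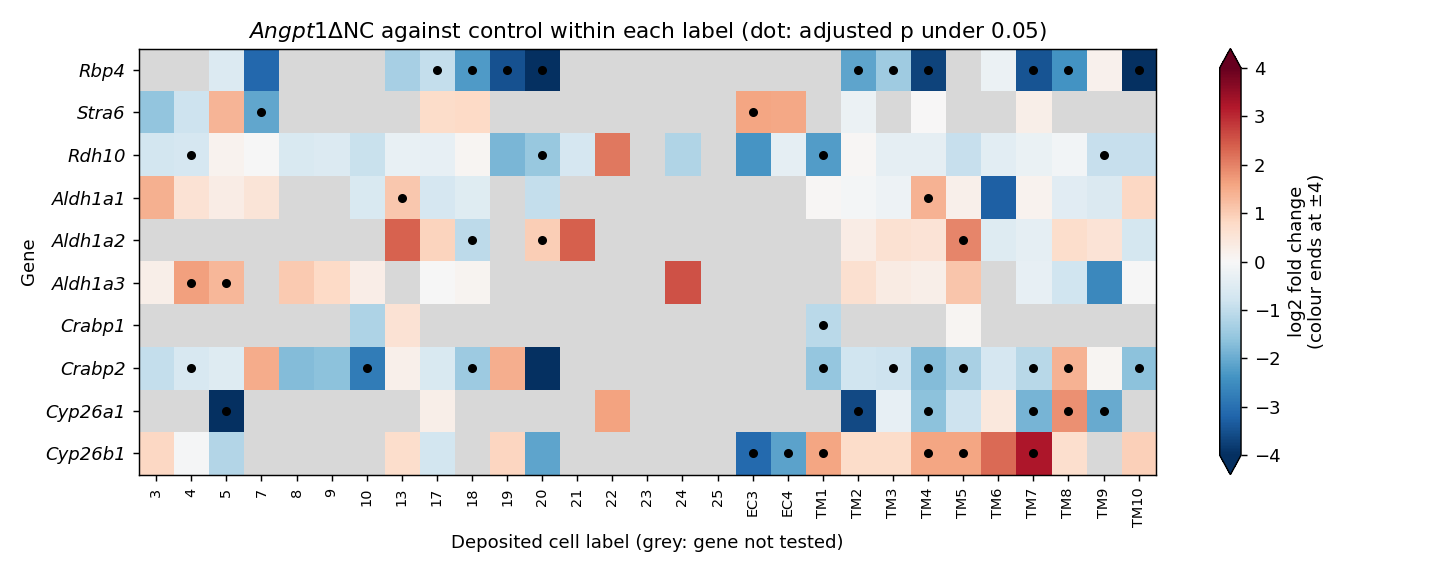
log2 fold change of *Angpt1*ΔNC against control within each of the 29 labels (columns) for each gene (rows), with a dot where edgeR's adjusted p was under 0.05 and grey where the gene was not tested. *Rbp4* was lower in 10 labels, and *Cyp26b1* was lower in EC3 and EC4 and higher in 4 TM labels.

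*Rbp4*, the carrier of retinol, fell in *Angpt1*ΔNC in 10 of the 15 labels where it was tested and was called higher in none. In TM8 its level was 4.53 and 4.14 in the controls and 0.689 in *Angpt1*ΔNC, a log2 fold change of -2.39 ± 0.22 (SE, adjusted p = 3.6e-05). In TM10, led by *Clec3b* and *Cd34*, the levels were 1.24, 1.51 and 0.0566, and *Rbp4* UMIs were present in 35.1%, 37.7% and 3.72% of cells (log2 fold change -4.44 ± 0.37, adjusted p = 4.55e-22). The *Angpt1*ΔNC library thus stood below both controls, which lay close to each other. The same order held in mural cells. Pericyte label 20 had 1.83, 1.49 and 0.0904 (log2 fold change -4.16, adjusted p = 1.70e-07), and smooth muscle label 19 had 2.62, 3.27 and 0.340 (-3.49, adjusted p = 6.42e-05). In TM4 the levels were 0.771, 1.07 and 0.0787 (-3.70, adjusted p = 1.10e-06). *Rbp4* also fell in labels 17 (-0.97), 18 (-2.28), TM2 (-2.11), TM3 (-1.42) and TM7 (-3.45).

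*Rbp4* was tested and not called in TM9, TM6 and labels 5, 7 and 13. In TM9 it stood at 3.18 and 3.48 in the controls and 3.40 in *Angpt1*ΔNC, so that the knockout library lay between them (log2 fold change 0.16 ± 0.22, adjusted p = 0.766). TM6 had 2.40, 2.27 and 1.52, with the *Angpt1*ΔNC level below both controls (-0.22 ± 0.25, adjusted p = 0.732). In labels 5, 7 and 13 the levels were at most 0.324 in every library. Whether the genotype difference itself differed between these labels and others was not tested. DESeq2 made every *Rbp4* call but that in TM3. In male-typed cells the calls in TM4 (-3.77), TM7 (-3.05), TM8 (-3.83), TM10 (-4.28), 18 (-2.52) and 20 were also made, whereas 17 (-0.67) and TM2 (-1.04) missed the threshold, TM3 turned to 0.80 and label 19 had too few male-typed cells. Label 17 also missed it in edgeR without the shared barcodes (adjusted p = 0.0685) and with no filter on low counts (adjusted p = 0.0744). The label 17 call was lost too with RLE in place of TMM factors in edgeR, and with p adjusted within each label. With cells thinned to 2000 UMIs, TM8 kept its value and missed the threshold (-2.38, adjusted p = 0.0549 by edgeR), TM3 could not be tested and the other 8 calls were made. The background stood low in all libraries, with *Rbp4* UMIs in 0%, 0.752% and 1.90% of label 22 cells.

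*Stra6*, the receptor for retinol binding protein, was called in 2 of 11 labels, higher in EC3 and lower in label 7. In EC3 its level was 0.911 and 0.927 in the controls and 2.29 in *Angpt1*ΔNC, and the knockout library was above both (log2 fold change 1.57 ± 0.21, adjusted p = 2.20e-06, also called by DESeq2). EC3 had 58 *Angpt1*ΔNC cells, and too few male-typed cells for a test in them. The endothelial label EC4 had a fold change of about the same size at a lower level, with 0.0754, 0.105 and 0.319, but missed the threshold (1.55 ± 0.48, adjusted p = 0.115), and the difference between EC3 and EC4 was not tested. In label 7, led by *Pcp4*, *Stra6* stood at 0.327, 0.250 and 0.0632 (-2.07, adjusted p = 0.0169), a call made neither by DESeq2 nor in male-typed or thinned cells. Label 1, where *Stra6* was highest, had 17 *Angpt1*ΔNC cells and was not tested. Its levels were 5.51, 4.50 and 3.67.

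UMIs of genes that mark pigment epithelium and rods differed between the libraries in cells outside label 1. The 6 listed pigment epithelium genes, none at 0 and led by *Ttr*, summed to 57.9, 44.0 and 35.7 per 1000000 UMIs outside label 1. The rod genes *Sag*, *Gnat1*, *Pdc* and *Rcvrn*, none at 0 and led by *Sag*, summed to 51.5, 11.6 and 1.89. The 5 lens genes, led by *Bfsp1*, summed to 3.89, 3.65 and 3.04. Whether these UMIs came from free RNA or from the labelled cells was not tested. The part of this difference in the values of *Stra6* and *Rdh10*, both highest in label 1, was not tested.

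*Rdh10*, which encodes a retinol dehydrogenase of the first oxidation step, was called in 4 of 27 labels, each time lower in *Angpt1*ΔNC. In pericyte label 20 it stood at 8.43, 9.14 and 3.04, with UMIs in 59.0%, 66.6% and 33.8% of cells (log2 fold change -1.52 ± 0.18, adjusted p = 3.18e-05). The *Angpt1*ΔNC level was less than that of either control, and the call was also made by DESeq2 and in male-typed cells (-1.60). In TM1 the levels were 0.430, 0.499 and 0.121 (-2.24, adjusted p = 1.16e-05) and in TM9 4.21, 4.25 and 2.01 (-0.92, adjusted p = 0.00281). Both were called in male-typed cells, at -2.11 and -0.93, and not by DESeq2. Thinned cells gave the calls in label 20 and TM9 and could not be tested in TM1. Label 4 had a smaller difference (-0.68, adjusted p = 0.0375), called neither by DESeq2 nor in male-typed or thinned cells, nor with no filter on low counts. In TM8, the third highest label, *Rdh10* stood at 5.90, 6.00 and 4.80 (-0.10, adjusted p = 0.829).

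**Figure D3:**
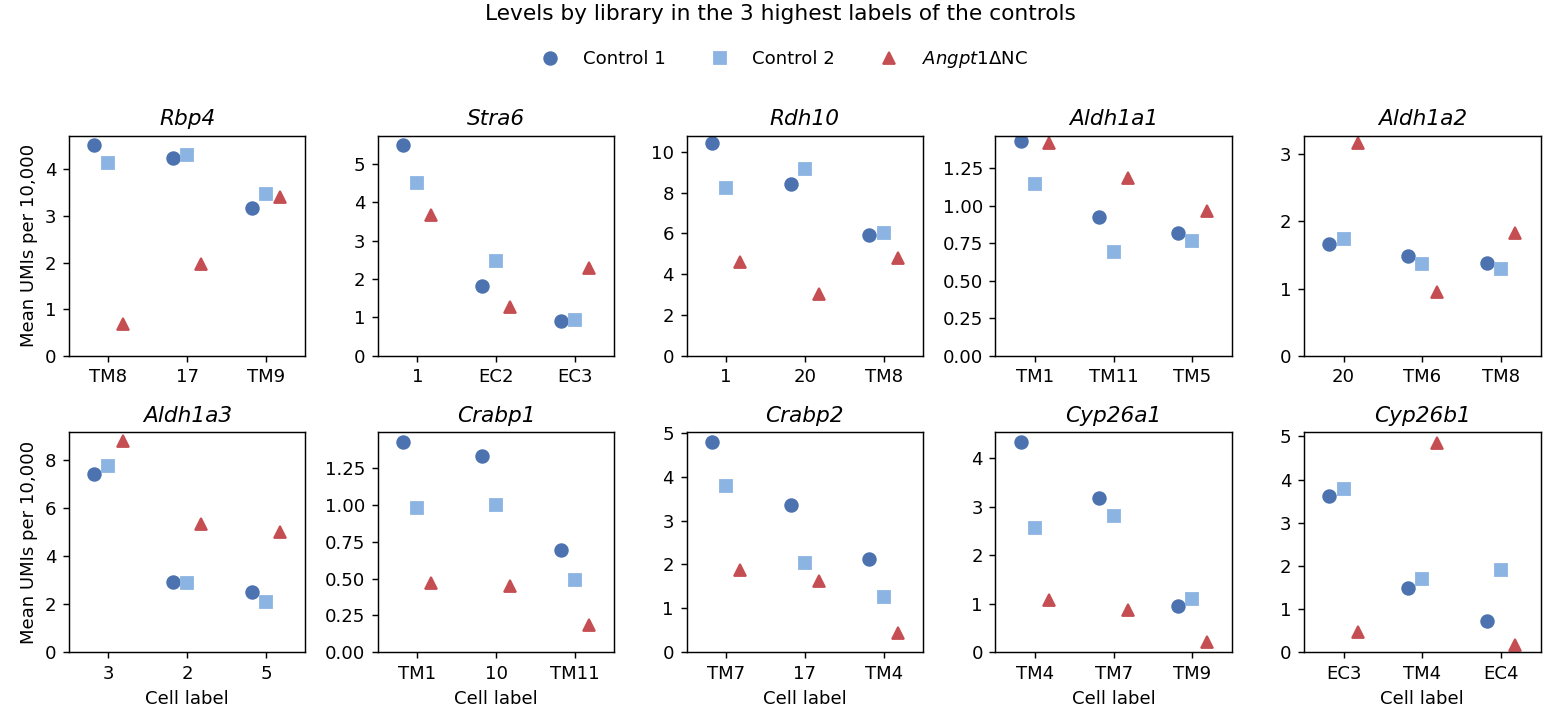
Mean UMIs per 10,000 of each gene in its 3 highest control labels, 1 point per library (circles control 1, squares control 2, triangles *Angpt1*ΔNC). The triangle lies below both controls for *Rbp4* in TM8, *Rdh10* in label 20, *Crabp2* in TM7 and *Cyp26b1* in EC3, and above both for *Cyp26b1* in TM4 and *Aldh1a3* in label 5.

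The calls among the retinaldehyde dehydrogenases were mostly increases. *Aldh1a3* rose in 2 of 17 labels, both epithelial. In label 4, which had *Krt14* and *Krt15* among its leading genes, it stood at 1.53, 0.962 and 3.29, with UMIs in 44.0%, 33.3% and 60.4% of cells (log2 fold change 1.65 ± 0.16, adjusted p = 1.09e-22). In label 5 it stood at 2.52, 2.11 and 5.00 (1.33 ± 0.15, adjusted p = 0.00312). The knockout library exceeded both controls in each. The controls of label 4 were apart, and its log2 fold change was 1.97 without control 1 and 1.40 without control 2. DESeq2 made both calls, and so did the fit to male-typed cells (1.66 in label 4 and 1.10 in label 5) and to thinned cells. With no filter on low counts the label 5 call was made and that in label 4 was lost (1.67, adjusted p = 0.147 by edgeR). In conjunctival label 3, with the highest level, the values were 7.40, 7.74 and 8.81 (0.23, adjusted p = 0.732). Label 2 had 2.92, 2.90 and 5.31 and was not tested, since control 2 held 41 of its cells.

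*Aldh1a1* rose in 2 of 19 labels. In TM4 it stood at 0.316, 0.291 and 0.826, with UMIs in 19.6%, 21.5% and 46.0% of cells (1.40 ± 0.19, adjusted p = 0.00018), and it was called by DESeq2 and in male-typed cells (1.53) too. In label 13, led by *Spink8* and *Thbs4*, it stood at 0.561, 0.670 and 1.32 (1.08, adjusted p = 0.00375), a call made neither by DESeq2 nor in thinned cells, nor with no filter on low counts. Its 3 highest labels were not called. TM1 had 1.43, 1.14 and 1.42, with the knockout library between the controls (0.05 ± 0.25, adjusted p = 0.95). TM5 had 0.815, 0.766 and 0.961, the last above both controls (0.20 ± 0.29, adjusted p = 0.782). TM11 had 0.921, 0.693 and 1.18, also above both, and was not tested, since control 1 held 27 of its cells.

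*Aldh1a2* moved in both directions. In label 20, where *Rdh10* fell, it stood at 1.66, 1.74 and 3.16 (1.00 ± 0.16, adjusted p = 0.000997). In TM5 it stood at 0.138, 0.0996 and 0.363 (1.96, adjusted p = 0.000932), and in label 18, led by *Ptn* and *Enpp2*, at 1.45, 1.21 and 0.639 (-1.04, adjusted p = 0.0187). These were 3 of 14 labels tested, and edgeR had 11 of the 14 at an unadjusted p under 0.05. DESeq2 made neither the call in label 20 nor that in label 18 and gave no adjusted p for TM5. In male-typed cells only the decrease in label 18 passed (-1.37), and the values for label 20 (0.61) and TM5 (1.81) did not. In thinned cells label 20 passed and label 18 did not.

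*Crabp2*, a binding protein that delivers retinoic acid to its nuclear receptors, was called in 10 of 22 labels, lower in 9 and higher in TM8. In TM7 it stood at 4.79, 3.77 and 1.88 (-1.12 ± 0.19, adjusted p = 0.0117) and in TM4 at 2.12, 1.27 and 0.446 (-1.72 ± 0.26, adjusted p = 0.000478). These were the calls that DESeq2 also made, and both were larger in male-typed cells (-2.52 and -2.43). The controls were themselves apart in TM4 and in several other labels. TM1 had 1.32 in control 1, 0.443 in control 2 and 0.297 in *Angpt1*ΔNC, and its log2 fold change of -1.55 became -0.53 without control 1. TM5 had 1.33, 0.434 and 0.279, and its -1.30 became -0.61 without control 1. The remaining decreases were in label 4 (-0.64), label 10 (-2.79), label 18 (-1.45), TM3 (-0.84) and TM10 (-1.65). TM8 had 0.228, 0.266 and 0.683 (1.40, adjusted p = 0.0078). In male-typed cells the calls in labels 4, 18 and TM10 were also made. Those in TM1 (-1.13), TM3 (-1.68), TM5 (-1.73) and TM8 (0.98) were not, and label 10 could not be tested. In thinned cells only the decreases in label 4, TM4 and TM7 were called. With no filter on low counts those in label 4 and TM3 were lost, and without the shared barcodes that in TM10.

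*Crabp1*, the other cellular retinoic acid binding protein, was tested in 4 labels and called in TM1. There it stood at 1.43, 0.980 and 0.471, with UMIs in 50.9%, 41.2% and 16.5% of cells (-1.08 ± 0.27, adjusted p = 0.00466). The call was made in male-typed cells (-2.29), and neither by DESeq2 nor in thinned cells. Label 10 had 1.34, 1.00 and 0.449 with an adjusted p of 0.0723.

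*Cyp26a1* fell in 5 of 11 labels and rose in TM8. In TM4, the label of the trabecular meshwork genes, it stood at 4.32, 2.57 and 1.08 (log2 fold change -1.63 ± 0.27, adjusted p = 0.0012). In TM7 it stood at 3.18, 2.81 and 0.864 (-1.85 ± 0.20, adjusted p = 0.000738). The *Angpt1*ΔNC level was below both controls in each, although the controls of TM4 were apart. Outside label 5, the steepest fitted decrease was in TM2, led by *Cldn10*, with 0.539, 0.655 and 0.0472 (-3.60 ± 0.32, adjusted p = 8.72e-05). TM9 had 0.948, 1.10 and 0.208 (-2.01, adjusted p = 1.01e-10). In label 5, control 1 had 75 UMIs, control 2 had 93 and *Angpt1*ΔNC had 0 in 270 cells. Against a floor of 3 counts in the *Angpt1*ΔNC sum, that was at least 16.4-fold lower (adjusted p = 0.00695). These decreases were called by DESeq2 and in male-typed cells, with values there of -1.67 in TM4, -1.68 in TM7, -3.59 in TM2 and -2.54 in TM9.

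TM8 went the other way for *Cyp26a1*, with 0.292 in control 1, 0.750 in control 2 and 2.14 in *Angpt1*ΔNC (1.83 ± 0.41, adjusted p = 0.0254). The value rested on the controls, since it was 2.76 without control 2 and 1.28 without control 1. DESeq2 did not make this call, and neither did edgeR without the shared barcodes or in thinned cells, while male-typed cells did (2.08).

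*Cyp26b1*, the second breakdown enzyme, was called in 6 of 18 labels, lower in the endothelial labels EC3 and EC4 and higher in 4 of the 9 TM labels tested. In EC3 it stood at 3.61 and 3.78 in the controls and 0.466 in *Angpt1*ΔNC, with UMIs in 60.2%, 66.9% and 19% of cells (log2 fold change -3.10 ± 0.29, adjusted p = 3.11e-10). The *Angpt1*ΔNC level came from 58 cells and lay below both controls, which were close to each other. EC4 had 0.719, 1.91 and 0.175 (-2.15, adjusted p = 0.0308), and EC2, not tested with 32 and 38 control cells, had 0.206, 0.226 and 0.0408. Only the EC3 call was made by DESeq2. The EC4 call was made in male-typed cells (-2.20), and EC3 had too few of them. The background share of label 22 was 0%, 1.5% and 1.90%.

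In TM4, *Cyp26b1* stood at 1.5, 1.70 and 4.86, with UMIs in 45.5%, 53.9% and 79.7% of cells (1.58 ± 0.20, adjusted p = 7.00e-05). TM7 had 0.0510, 0.0999 and 0.763 (3.22 ± 0.32, adjusted p = 0.000427), TM5 had 0.585, 0.482 and 1.44 (1.58, adjusted p = 1.07e-05) and TM1 had 0.138, 0.224 and 0.509 (1.56, adjusted p = 0.000833). The knockout library stood above both controls in all 4. The controls of TM7 were apart, and its log2 fold change was 2.84 without control 1 and 3.81 without control 2. DESeq2 called TM4 and TM7. The increases in TM4 (1.88), TM5 (2.15) and TM7 (3.89) were called in male-typed cells, and that in TM1 (0.96) was not. Of the 6 *Cyp26b1* calls, those in EC3, TM4 and TM7 were made in thinned cells. In TM4 and TM7, *Cyp26a1* fell while *Cyp26b1* rose in the same sums.

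**Figure D4:**
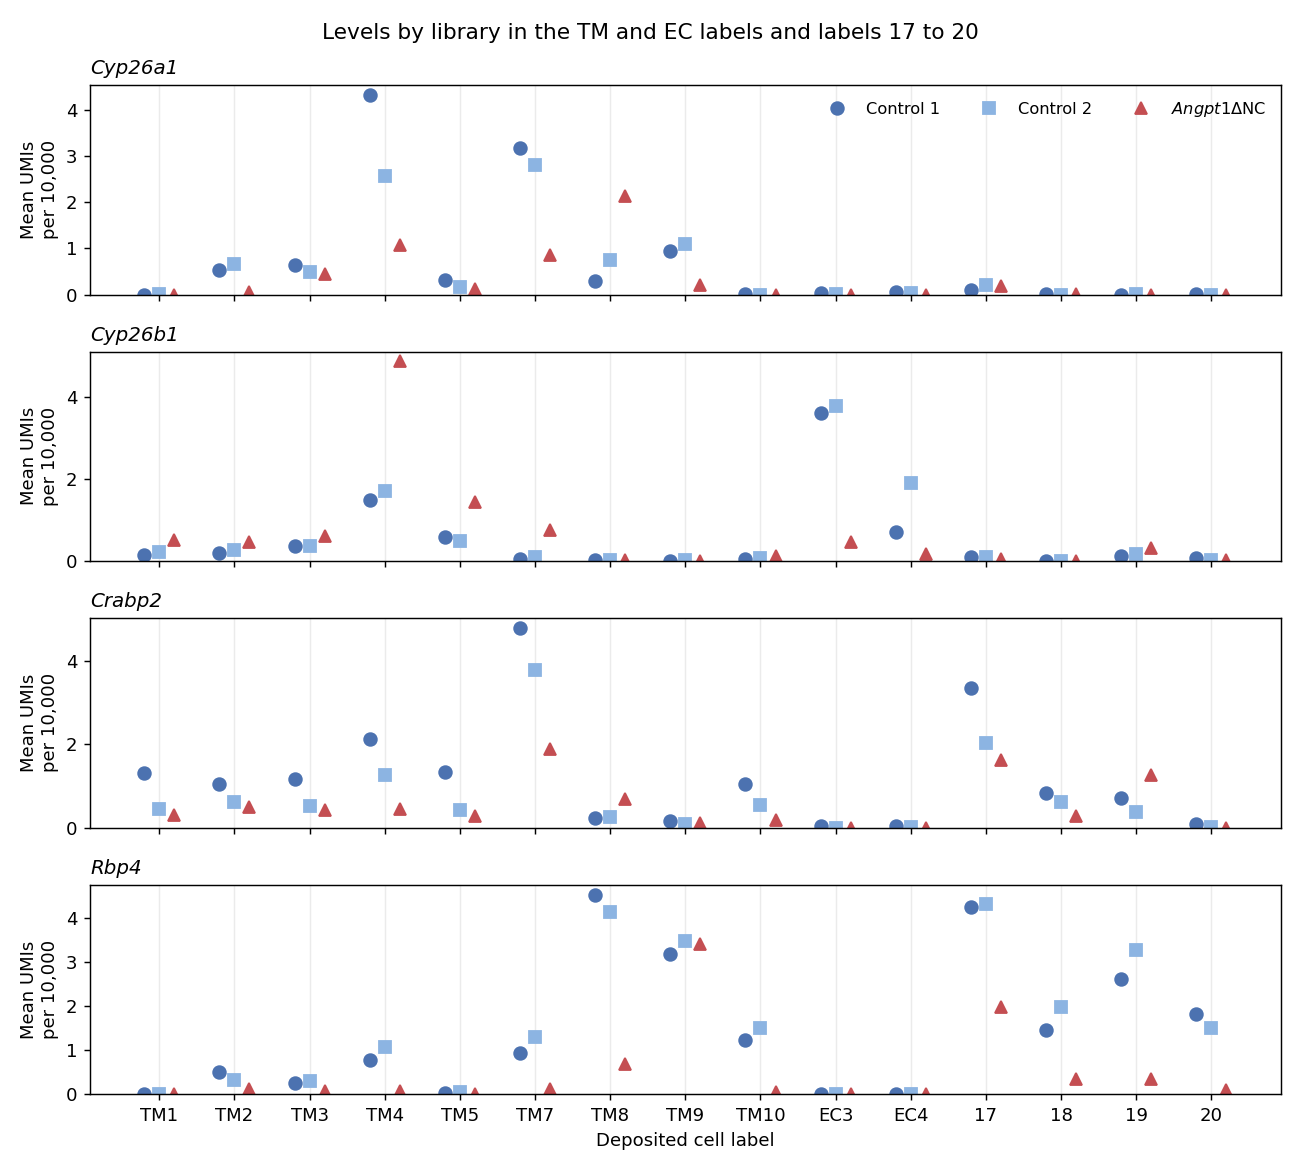
Mean UMIs per 10,000 of *Cyp26a1*, *Cyp26b1*, *Crabp2* and *Rbp4* in the TM and EC labels and labels 17 to 20, 1 point per library (circles control 1, squares control 2, triangles *Angpt1*ΔNC). In TM4 the triangle is below both controls for *Cyp26a1*, *Crabp2* and *Rbp4* and above both for *Cyp26b1*.

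TM4 held the most calls, 5 of the 9 genes tested there (*Rbp4*, *Crabp2* and *Cyp26a1* lower, *Aldh1a1* and *Cyp26b1* higher), against 5.97% of all genes tested in that label. TM7 had 4 of 9 (5.03% of all genes) and TM1 4 of 5 (4.81%). There were 3 calls each in TM5 (of 8, 3.1%), TM8 (of 8, 4.03%), label 18 (of 7, 3.91%), label 20 (of 6, 6.57%) and label 4 (of 6, 9.71%). There were 2 each in TM2 (of 9, 2.5%), TM3 (of 8, 6.35%), label 5 (of 8, 3.24%), TM9 (of 7, 11.3%) and TM10 (of 7, 9.32%). Among the endothelial labels, 2 of 3 genes were called in EC3 (6.57%) and 1 of 3 in EC4 (3.82%). Labels 7 (1 of 5, 2.29%), 10 (1 of 5, 1.82%) and 13 (1 of 7, 4.19%) also had 1 call each. So did labels 17 (1 of 9, 2.4%) and 19 (1 of 4, 2.16%). The remaining 9 of the 29 labels had none, among them TM6 (of 7 genes tested) and label 3 (of 6). They include labels 23 and 25, where no gene of the set passed the filter on low counts.

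Cells with UMIs of both a synthesis and a breakdown gene were counted in the leading labels of each gene. In TM4, 28, 33 and 27 cells had both *Aldh1a2* and *Cyp26a1*, where the product of their shares gave 31.3, 30.1 and 29.5. For *Aldh1a1* and *Cyp26a1* the counts were 35, 33 and 50 against 29.2, 30.6 and 47.4, and for *Rdh10* and *Cyp26a1* 25, 30 and 18 against 25.5, 24.1 and 16.6. In TM1, 13, 10 and 17 cells had *Aldh1a1* and *Cyp26b1*, against 9.42, 11.9 and 16.5. These 4 combinations were the ones with at least 10 such cells in every library, and their counts lay near those of the product.

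The other genes of the pathway were taken from a list of 44, of which 35 were tested. Of their 546 pairs with a label, 73 were called (13.4%, against 4.91% for all genes), 44 lower and 29 higher in *Angpt1*ΔNC, and 21 genes had at least 1 call. *Ttr* alone gave 16 of the 73, 14 of them lower. Label 1 held 99.1%, 98.3% and 92.2% of the *Ttr* UMIs of control 1, control 2 and *Angpt1*ΔNC. The part of free RNA in the *Ttr* calls was not tested. DESeq2 made 21 of the 59 calls for which it gave an adjusted p. In male-typed cells 33 of the 65 calls that could be tested were made, in thinned cells 24 of 58 and with no filter on low counts 63 of 73. The list for the handling of retinol and retinaldehyde had 51 of 294 pairs called, the receptors 3 of 122 and the genes known to respond to retinoic acid 25 of 175 (*Dhrs3* and *Rarb* stood in 2 of these lists). The handling list also held *Aldh3a1* (7 calls) and *Fabp5* (5 calls), whose products are not limited to retinoids.

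The pathway genes with the highest control levels led in different labels. Label 1 was highest for *Ttr* (938 and 836), *Rdh5* (66.5 and 61.0), *Rpe65* (45.6 and 43.4) and *Rlbp1* (19.8 and 18.3), of which the last 3 serve the visual cycle. *Aldh3a1*, an abundant aldehyde dehydrogenase of the cornea, was highest in label 5 (105 and 99.8). *Fabp5*, which encodes a fatty acid binding protein that can also bind retinoic acid, was highest in label 4 (28.3 and 28.8). *Rarres2*, which encodes chemerin, was highest in TM8 (8.98 and 10.97), and *Rbp2*, a cellular retinol binding protein gene, in label 3 (5.599 and 7.046).

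Among the alcohol dehydrogenases, which can oxidise retinol, *Adh7* rose in 6 labels and *Adh1* in 3. In the controls *Adh7* was highest in labels 2 and 3 and *Adh1* in labels 3 and 5, the labels where *Aldh1a3* was also highest. Over whole libraries *Adh7* summed to 43.9, 30.6 and 82.8 per 1000000 UMIs and *Adh1* to 22.3, 21.8 and 36.9 in control 1, control 2 and *Angpt1*ΔNC. Label 3 had 98, 100 and 192 cells, label 4 had 414, 507 and 641 and label 5 had 575, 505 and 270. The part of free RNA in the changes of these genes in TM labels was not tested. In TM10 the *Adh7* level was 0.239, 0.0551 and 1.19 (log2 fold change 3.1, adjusted p = 2.07e-19), and in TM1 it was 0.205, 0.131 and 1.06 (2.49, adjusted p = 4.20e-15). DESeq2 made the *Adh7* calls in TM1 and label 5, and male-typed cells gave all but that in label 4. *Adh1* rose in TM1 (1.41), TM2 (2.47) and TM4 (4.52, from 1, 1 and 27 UMIs), and neither DESeq2 nor male-typed cells gave a call in TM1 or TM2 or an adjusted p for TM4. *Aldh3a1* fell in 5 labels and rose in 2. In TM1 its level was 23.9, 27.1 and 14.2 (-0.99, adjusted p = 0.00194), and in TM10 it was 0.429, 0.251 and 1.59 (2.18, adjusted p = 4.52e-14). DESeq2 made both of these calls, and male-typed cells gave that in TM10 and not that in TM1. The other *Aldh3a1* decreases were in labels 4 (-0.65), 9 (-1.60), 20 (-2.56) and TM9 (-1.26), and it also rose in TM3 (1.23). DESeq2 made none of the calls in labels 4, 9, TM3 and TM9 and gave no adjusted p for label 20, and male-typed cells gave those in label 4 and TM3 only.

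*Fabp5* fell in 4 labels and rose in TM10 (1.32). In EC3 it stood at 0.315, 0.375 and 0.0113, the last from 1 UMI (-3.97, adjusted p = 0.00125), and in EC4 at 1.39, 0.656 and 0.162 (-2.75, adjusted p = 0.00861). It also fell in labels 7 (-3.52) and 9 (-1.10). The 4 calls that could be tested in male-typed cells were made there, EC3 being the exception. DESeq2 made those in labels 7, 9 and EC4, did not make that in TM10 and gave no adjusted p for EC3. Thinned cells gave those in labels 7 and 9 only. *Dhrs3*, which encodes a reductase that returns retinaldehyde to retinol, fell in 5 labels and rose in label 9 (0.51). In EC3 it stood at 3.11, 2.90 and 1.42 (-0.81, adjusted p = 0.0238), and in EC4 at 0.897, 1.61 and 0.422 (-1.42, adjusted p = 0.023). DESeq2 made none of the *Dhrs3* calls, and male-typed cells gave those in label 9 and EC4 and could not be tested in EC3. *Rdh5* fell in labels 8 (-0.97) and 9 (-1.10), calls made neither by DESeq2 nor in thinned cells. *Rbp2* rose in label 5 (1.11, also called by DESeq2), *Dhrs9* in label 4 (1.13) and *Dgat1* in label 21 (1.68). Of these, the increases of *Rbp2* and *Dgat1* and the decrease of *Rdh5* in label 8 were called in male-typed cells. In label 7, *Rbp3* had 93, 10 and 3 UMIs (adjusted p = 0.0272) and *Rdh12* had 36, 5 and 0 (adjusted p = 0.0417), so that the controls were themselves apart. *Ttr*, which encodes transthyretin and led the pigment epithelium list above, fell in 14 labels and rose in labels 8 and 9, and the part of free RNA in these changes was not tested. Of these 16 *Ttr* calls, DESeq2 made 6 of the 12 for which it gave an adjusted p (4 lower), and male-typed cells gave 7 of the 15 that could be tested (5 lower).

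Among genes that respond to retinoic acid, *Tgm2*, which encodes a transglutaminase, fell in 7 labels and rose in label 4 and TM10. In TM4 its level was 0.401, 0.360 and 0.0532 (log2 fold change -2.63, adjusted p = 4.04e-05), and in TM7 it was 2.44, 2.14 and 0.782 (-1.62, adjusted p = 0.00143). Both of these calls were made by DESeq2 and in male-typed cells. Of the other *Tgm2* calls, DESeq2 made those in TM2 and TM3 and not those in labels 4, 20, TM1, TM5 and TM10. Male-typed cells gave all but those in TM1 and TM10. *Nr2f1*, an orphan nuclear receptor gene, rose in TM3 (1.36), TM7 and TM8 (1.29), with 0.416, 0.565 and 1.35 in TM7 (1.51, adjusted p = 0.00769). DESeq2 made the calls in TM7 and TM8, and in male-typed cells only that in TM8 was made. *Rarres1* rose in label 13 (2.26), TM1 (1.52) and TM9 (1.54) and had 16, 18 and 0 UMIs in label 21 (adjusted p = 0.0302). None of its calls was made where DESeq2 (TM9) or male-typed cells (label 21, TM1 and TM9) gave an adjusted p. The remaining calls of this list were *Rarres2* in label 22 (2.53, from 2, 7 and 28 UMIs), *Meis2* in label 8 (-1.51) and *Nr2f2* in label 19 (-1.09), none of them made by DESeq2. In male-typed cells the first 2 were not made and the last could not be tested. The receptor gene *Rara* rose in EC3 (1.01, adjusted p = 0.00627) and fell in label 18 (-1.07), and *Rarg* fell in label 4 (-1.13, adjusted p = 0.000169). DESeq2 made none of these 3 receptor calls, and male-typed cells gave that of *Rarg*, not that of *Rara* in label 18, and could not be tested in EC3.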

How the data were processed

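Per the matrix headers and the submitters' processing notes, the authors aligned and counted reads with Cell Ranger (2.1.1 in the notes, 3.0.2 in the headers) and used Seurat 3.1.3. The deposited matrices hold raw UMI counts per gene and cell. Deposited tables of integrated expression gave the kept cells and their labels, and their values were not used here. Labels such as TM_4 are written TM4.

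Levels were means over cells of UMIs per 10,000. Counts were summed per library and label and tested with edgeR 4.0.16 (TMM factors, filterByExpr, quasi-likelihood test, R 4.3.3), with DESeq2 1.42.0 as an alternative. The step was tested on simulated data, and the outcome is not given here. The p-values rest on the spread between the control pools. The spread between knockout pools could not be measured from a lone library and was assumed to be like that of the controls. The authors had removed doublets predicted by scDblFinder from the kept cells, and no further doublet caller was run here. Promoter windows came from RefSeq, and 30934 of 31053 gene identifiers matched GENCODE M21. All 10 genes were named with their 3 highest labels, and the 3 most correlated genes were ranked by the lower control value. For 5 genes only the nearest is given. Other pathway genes were named when called or when their highest label reached 5 UMIs per 10,000 in both controls. Some genes that these rules or the marker lists would name are not reported here. The members, lists and rules were chosen with earlier results of these data known. The fits to male-typed cells, without shared barcodes and with p adjusted within each label were added after the data were seen.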

Additional observations from a re-analysis of the deposited data

Results flagged for a closer look

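Genes called in opposite directions in different labels are listed here with the lowest and the highest log2 fold change among the labels where each was called. The differences between labels were not tested. *Stra6* had -2.07 in label 7 and 1.57 in EC3. *Aldh1a2* had -1.04 in label 18 and 1.96 in TM5. *Crabp2* had -2.79 in label 10, where *Angpt1*ΔNC held 2 UMIs, and 1.40 in TM8. *Cyp26a1* had -3.60 in TM2 and 1.83 in TM8, leaving out label 5, where *Angpt1*ΔNC held 0 UMIs. *Cyp26b1* had -3.10 in EC3 and 3.22 in TM7, the pair for which DESeq2 made both calls.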

How the results depend on the processing

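Among the 10 genes, 46 calls became 24 with DESeq2 and 28 with cells thinned to 2000 UMIs. Under the other settings the number of calls was 31 to 52. The 52 came with no filter on low counts and held 40 of the 46, without those of *Rbp4* in label 17, *Rdh10* in label 4, *Aldh1a1* in label 13, *Aldh1a3* in label 4 and *Crabp2* in label 4 and TM3. Over all genes, 12261 pairs became 2773 with DESeq2, 5759 with thinned cells and 6709 with male-typed cells, for which fewer labels could be fitted. The direction reversed for *Rbp4* in TM3, at 0.80 in male-typed cells, and the cause was not tested. Without one control, the leading label was the same for 6 to 10 of the 10 genes. Control 2 alone placed *Rbp4* first in label 17, *Rdh10* in label 20, *Crabp1* in label 10 and *Cyp26a1* in TM7. Pairs of a synthesis and a breakdown gene with 10 or more cells holding both in every library fell from 4 to 0 when cells were thinned. No paired analysis was possible because there was 1 *Angpt1*ΔNC library, so that fewer than 2 pairs could be formed. One residual degree of freedom, the sex of the pools and labels made from the same cells limit every genotype comparison here. Cell numbers also differed between control 1, control 2 and *Angpt1*ΔNC. They were 387, 499 and 54 in label 19 and 591, 612 and 155 in TM8, but 301, 165 and 534 in label 18. The paper could not exclude that variable dissection shifted its cell populations, and the part of dissection in the present values was not tested.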
